A study of Mus musculus with 2 samples.

Results

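Malat1, Neat1, Tug1, Pvt1 and Miat are long noncoding RNAs, and Sfpq, Nono, Pspc1, Rbm14 and Matr3 encode RNA-binding proteins of paraspeckles and the nuclear matrix. They were picked by gene symbol from a table of 22383 mouse genes, and were chosen by their ratios between the 2 libraries, which had been seen. Of the 10 symbols, 9 were found, 4 noncoding and 5 protein-coding, and Miat was not analysed here. All 9 had at least 20 counts in both libraries, so none was set aside for low counts.

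Both libraries were made from iHFSC2, a mouse line labelled as hair follicle stem cells. One line, shcircSmad5, was infected with lentivirus whose hairpin targets circSmad5, the circular RNA named for the Smad5 gene. The other, empty vector, was infected with lentivirus lacking that insert. Both were put under puromycin from day 4 and taken as stable lines at day 15, and each gave 1 library. Whether a line is 1 clone, and the promoter of the hairpin, are not stated in the labels. There is thus no replicate check and no test. Differences between separately selected lines, or from expressing any hairpin, cannot be told apart from those of targeting circSmad5. The level of circSmad5 itself was not analysed here.

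The total gene count was 38382081 in the shcircSmad5 library and 39261010 in the empty vector library. Of the markers chosen for hair follicle stem cells and basal keratinocytes, Krt5 had 224675 counts in the shcircSmad5 library and 206538 in the empty vector library, and Sox9 had 5301 in the shcircSmad5 library and 8829 in the empty vector library. Cd34 was at 0 in both and Lhx2 had 5 counts in the shcircSmad5 library and 4 in the empty vector library, so these 2 bulge markers were at or near 0. Krt15, a further bulge marker, had 79 counts in the shcircSmad5 library and 253 in the empty vector library. Others of this marker list were well above 0. In the shcircSmad5 and empty vector libraries, in that order, Nfatc1 had 2077 and 2300 counts and Tcf7l1 498 and 483. Krt14 had 226645 and 162982, Itga6 29412 and 41616, Itgb4 23154 and 23584, and Trp63 9449 and 11857. Lgr5, also listed, was not found. Markers of fibroblasts, melanocytes, immune and endothelial cells, 8 of them in the table, summed to 93 counts in the shcircSmad5 library and 250 in the empty vector library, with Col1a1, Dcn and Cdh5 at 0 in both. The 2 with at least 20 counts were both lower. Pdgfra, a fibroblast marker, had 62 counts in the shcircSmad5 library and 161 in the empty vector library. Pecam1, an endothelial marker, had 27 counts in the shcircSmad5 library and 81 in the empty vector library. The part of other cell types in the results was not tested.

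As background, Malat1 is an abundant RNA of nuclear speckles, the bodies that hold splicing factors. Neat1 is the scaffold of paraspeckles, nuclear bodies that form on its long isoform and hold back some RNAs and proteins. Sfpq, Nono and Pspc1 form the DBHS family, which binds Neat1 as homodimers and heterodimers. Malat1 and the long isoform of Neat1 do not end in an ordinary poly(A) tail. Their 3′ ends are made when RNase P cuts off a small tRNA-like RNA, and are kept by a triple helix of U-rich and A-rich stretches.

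Those 3′ ends are shown because they are a feature that the 2 highest members share and that played no part in choosing them. Both genes lie on the minus strand of chromosome 19 (GRCm38), Malat1 at chr19:5795690-5802672 and Neat1 at chr19:5824708-5845478, with 22035 bases between them. Tug1 lies at chr11:3639785-3649673 on the minus strand and Pvt1 at chr15:62037986-62378096 on the plus strand. The last 100 bases of the long Neat1 transcript (20771 bases) were compared with the long Malat1 transcript (6983 bases) for exact matches of at least 11 bases. Capitals mark the 3 matches found. The Malat1 stretch is chr19:5795982-5796065 and the Neat1 stretch chr19:5824708-5824797, both from GENCODE M21 transcripts, 5′ to 3′.
Malat1: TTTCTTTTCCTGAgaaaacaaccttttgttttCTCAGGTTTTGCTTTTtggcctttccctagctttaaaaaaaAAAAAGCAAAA
Neat1: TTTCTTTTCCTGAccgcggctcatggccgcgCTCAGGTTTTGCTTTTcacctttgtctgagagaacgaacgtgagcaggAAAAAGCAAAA

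The 3 stretches stand in the same order in both RNAs. Among the 22298 genes of the table with a transcript sequence, searched on the transcript strand, 16 hold the first stretch (0.0718%), 2 the second (0.00897%) and 258 the third (1.16%). Malat1 and Neat1 hold all 3 by construction, since the stretches were defined as matches between them. No other of the 22298 genes holds all 3. How rare such a set of stretches would be by chance was not tested. The small RNA that follows begins at the next base in both genes. After Malat1 comes the RNA that RefSeq names Mascrna (chr19:5795924-5795981), and after Neat1 the model Gm27702 (chr19:5824652-5824707). The counts of neither small RNA were analysed here. Capitals mark their longest common stretch.
Mascrna: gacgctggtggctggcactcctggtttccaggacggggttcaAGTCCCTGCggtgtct
Gm27702: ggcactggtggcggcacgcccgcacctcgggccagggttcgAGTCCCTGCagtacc

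The annotated Malat1 gene runs 292 bases past its A-rich stretch and so takes in Mascrna, whereas the Neat1 gene ends with that stretch. A gene count does not show whether a 3′ end was cut at this site.

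All 4 noncoding RNAs were higher in the shcircSmad5 library, by 3.99-fold to 15.1-fold, while none of the 5 protein genes differed by as much as 2-fold. The order of the rises, Malat1, Neat1, Tug1, Pvt1, is also the order of their levels in both libraries. Since these genes were chosen with the values of this comparison known, these are descriptions, and no test was made of them. A gene was called higher or lower on 3 conditions. At least 1 library had to hold 20 counts, the ratio of TMM-scaled counts had to reach 2-fold, and the exact 95% counting interval had to exclude 1. By this rule 8.43% of 13596 genes were called higher and 6.24% lower, 14.7% in all. Among long noncoding genes the shares were 45.7% higher and 6.83% lower, 52.5% in all. Among protein-coding genes they were 4.61% higher and 6.38% lower, 11% in all. Long noncoding genes were taken by annotated biotype. The class therefore includes processed transcript models under the names of protein genes, such as Cct6a, Tmem134, Ptpmt1 and Ifi30. The intervals cover counting error only. In total RNA from a culture, fewer cells that express a gene and less RNA per cell cannot be told apart.

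**Figure D1:**
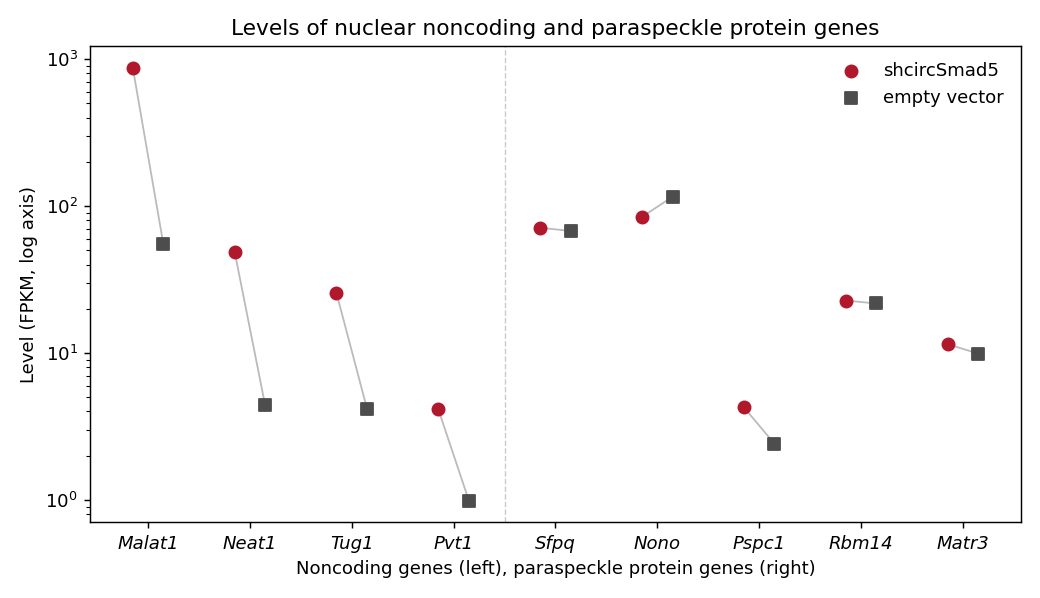
Level (FPKM, log axis) of each gene in the shcircSmad5 library (red circles) and the empty vector library (grey squares), 1 library each, with lines joining the values of a gene. The 4 noncoding genes on the left are all higher in the shcircSmad5 library, and of the 5 protein genes on the right only Nono is lower there.

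Malat1 (ENSMUSG00000092341) had 234509 counts in the shcircSmad5 library and 15187 in the empty vector library. That is a level of 875 FPKM in the shcircSmad5 library and 55.4 FPKM in the empty vector library, FPKM being counts scaled to exon length and to library size. The ratio was 15.1-fold (95% counting interval 14.9 to 15.4), a log2 ratio of 3.92. By count it was the 4th most abundant of 13596 genes in the shcircSmad5 library and the 412th in the empty vector library. Malat1 alone took 0.611% of all gene counts in the shcircSmad5 library and 0.0387% in the empty vector library.

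Neat1 (ENSMUSG00000092274) had 39017 counts in the shcircSmad5 library and 3592 in the empty vector library. Its levels were 48.9 FPKM in the shcircSmad5 library and 4.40 FPKM in the empty vector library. The ratio was 10.6-fold, a log2 ratio of 3.41 (3.36 to 3.46). Its rank by count was 61 in the shcircSmad5 library and 2900 in the empty vector library. The FPKM divides by 20771 bases, the summed exons, which is the length of the long isoform. A short isoform of 3004 bases shares the 5′ part, so the FPKM understates the level of Neat1 molecules to the extent that they are short ones. Isoforms cannot be separated in a gene count, and no value here says which of them rose.

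Tug1 (ENSMUSG00000056579), a spliced noncoding RNA found in the nucleus and the cytoplasm, had 9549 counts in the shcircSmad5 library and 1595 in the empty vector library. Its levels were 25.6 FPKM in the shcircSmad5 library and 4.17 FPKM in the empty vector library, a 5.86-fold difference (5.56 to 6.19). Pvt1 (ENSMUSG00000097039), which lies beside the Myc oncogene and is a target of p53, had 1109 counts in the shcircSmad5 library and 272 in the empty vector library. With 4.13 FPKM in the shcircSmad5 library and 0.990 FPKM in the empty vector library it was the lowest of the 4 in level, and its 3.99-fold ratio (3.49 to 4.58) the smallest.

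These 4 genes held 0.740% of all gene counts in the shcircSmad5 library and 0.0526% in the empty vector library. Of the counts of all genes in the long noncoding biotypes, they took 56.7% in the shcircSmad5 library and 13.5% in the empty vector library. That total includes the processed transcript model Cct6a, with 14774 counts in the shcircSmad5 library and 18844 in the empty vector library. Malat1 alone made up 46.8% of the counts of this class in the shcircSmad5 library and 9.90% in the empty vector library. Protein-coding genes took 98.2% of counts in the shcircSmad5 library and 99.2% in the empty vector library. With Malat1 left out of the totals, the same shares were 98.8% in the shcircSmad5 library and 99.2% in the empty vector library.

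The 3 DBHS genes had different ratios, each within 2-fold. Sfpq, which paraspeckles of human cells need in order to form, had 12954 counts in the shcircSmad5 library and 12597 in the empty vector library, a log2 ratio of 0.01 (-0.03 to 0.05). Nono, its partner and likewise needed, had 14167 counts in the shcircSmad5 library and 19889 in the empty vector library, a log2 ratio of -0.52 (-0.55 to -0.49). Nono lies on the X chromosome, whose measured genes had a median of -0.43. Relative to that median its log2 ratio was -0.09. Pspc1, the family member that paraspeckles can form without, had 938 counts in the shcircSmad5 library and 543 in the empty vector library. Its log2 ratio of 0.76 (0.60 to 0.91) was the highest of the 5 protein genes. In level Pspc1 was far below its relatives, at 4.26 FPKM in the shcircSmad5 library and 2.41 FPKM in the empty vector library, whereas Sfpq was at 71.2 FPKM in the shcircSmad5 library and 67.6 FPKM in the empty vector library.

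Rbm14, a further protein that paraspeckles of human cells need, had 3413 counts in the shcircSmad5 library and 3334 in the empty vector library, a log2 ratio of 0.00 (-0.07 to 0.07). Matr3, an RNA-binding protein of the nuclear matrix whose human protein associates with SFPQ and NONO, had 4474 counts in the shcircSmad5 library and 3950 in the empty vector library, a log2 ratio of 0.15 (0.09 to 0.21). Both values rest on exons that are partly shared with other models on the same strand. The model Gm21992 covers 18.6% of the exonic bases of Rbm14, and another, Gm28285, 17.3% of those of Matr3. For Sfpq the model Gm12940 covers 4.55%. The counting rule for shared bases is not given in the sources used here, so these values are uncertain to that extent.

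Per length (FPKM), Malat1 stood above Sfpq and Nono in the shcircSmad5 library and below both in the empty vector library. It stood at 12.3 times the level of Sfpq in the shcircSmad5 library and 0.819 times in the empty vector library. Against Nono, Malat1 stood at 10.4 times in the shcircSmad5 library and 0.478 times in the empty vector library. Neat1, the scaffold, had 0.688 FPKM per FPKM of Sfpq in the shcircSmad5 library and 0.0651 in the empty vector library. The same quotient of Neat1 to Pspc1 was 11.5 in the shcircSmad5 library and 1.83 in the empty vector library. These quotients need no scaling between libraries. Over the 20 pairs of a noncoding and a protein gene, the quotient was higher in the shcircSmad5 library by 2.36-fold (Pvt1 to Pspc1) up to 21.7-fold (Malat1 to Nono). All had to be higher, because each noncoding ratio was above each protein gene ratio. The pairs restate the 9 ratios and are not further observations. The median log2 ratio was 2.98 for the 4 noncoding genes and 0.01 for the 5 protein genes, against -0.02 for all 13596 genes measured.

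**Figure D2:**
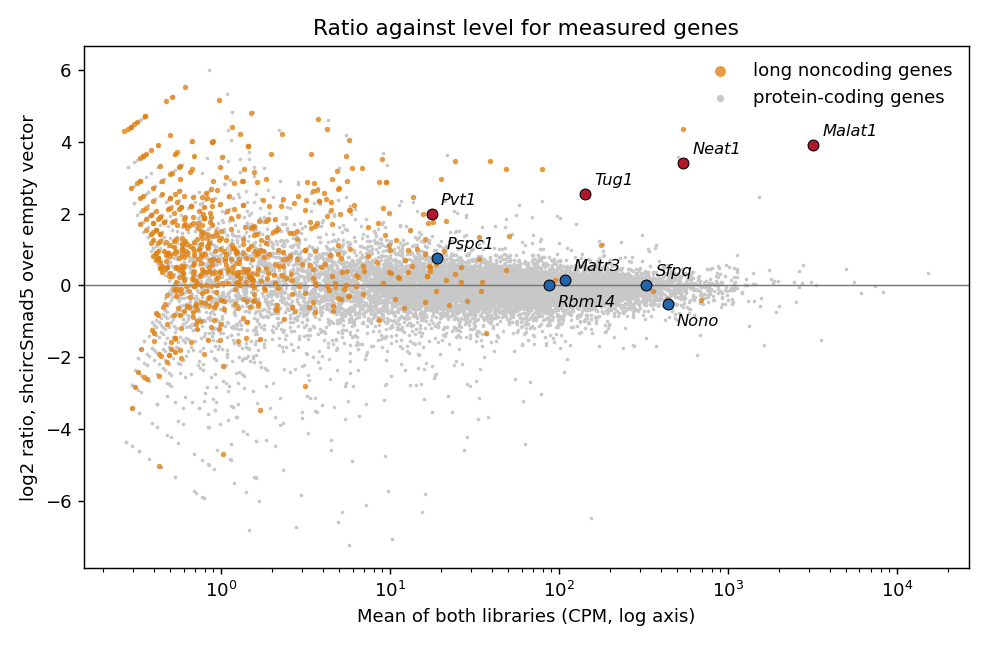
Log2 ratio of shcircSmad5 over empty vector against the mean level of both libraries (CPM, log axis), for long noncoding genes (orange) and protein-coding genes (grey) with counts in both libraries. The noncoding genes named in red lie at 2.00 to 3.92, and the protein genes named in blue at -0.52 to 0.76, amid the protein-coding genes.

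Long noncoding genes as a class also had high ratios, with a median log2 ratio of 0.90 over the 630 with at least 20 counts. Without the 4, 284 of 626 were higher and the median was 0.89. Of 6569 genes with a mean of at least 1000 counts over both libraries, 1 had a higher ratio than Malat1, 4 had a higher ratio than Neat1 and 8 a higher ratio than Tug1. The gene above Malat1 was Xist, and those above Neat1 were Xist, Malat1, Tmem134 and the protein-coding cyclophilin gene Ppia. Ppia had 36432 counts in the shcircSmad5 library and 3004 in the empty vector library, an 11.9-fold difference. It has many processed copies, and their part in its count was not tested. Ppia and Tmem134 are named after their values were seen. Long noncoding genes with at least 5000 exonic bases, which include all 4, were higher in 46 of 82 cases and lower in 0, with a median of 1.42. Shorter ones were higher in 242 of 548 cases and lower in 43, with a median of 0.87.

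Other well known long noncoding RNAs were split. Of 62 listed symbols, some of them aliases, 38 were matched and 26 had at least 20 counts. Of these 26, 12 were higher, none lower and 14 neither, with a median log2 ratio of 0.74. The share higher, 46.2%, was close to the 45.7% of all long noncoding genes. Xist, which coats and silences an X chromosome, had 40698 counts in the shcircSmad5 library and 1925 in the empty vector library, a 20.7-fold difference (19.8 to 21.7). Its neighbours Ftx and Jpx, noncoding genes of the same inactivation centre, were 4.05-fold and 2.98-fold higher. Oip5os1, the RNA also called Cyrano, had 5645 counts in the shcircSmad5 library and 588 in the empty vector library, 9.40-fold. Among hosts of small RNAs, Gas5 was 11.1-fold higher, Mir22hg 7.56-fold, Mir205hg 7.39-fold, Mir100hg 4.48-fold, Dleu2 3.80-fold and Mir17hg 3.25-fold. The listed small RNA hosts Snhg1, Snhg3, Snhg6, Snhg8, Snhg12 and Zfas1 were not called, with log2 ratios of -0.36 for Snhg8 up to 0.98 for Snhg6. Dancr was 12.2-fold and Epb41l4aos 5.00-fold higher.

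Of 22 genes in the long noncoding biotypes with a mean of at least 1000 counts, 10 were higher, 1 lower and 11 neither. The share higher was 45.5%, beside 45.7% of all long noncoding genes. Among the 10 were Malat1, Neat1 and Tug1 themselves, and the processed transcript models Tmem134 and Ptpmt1. The 1 lower was the model Ifi30. The RNAs named next are from the 11 that were neither. Norad, a mainly cytoplasmic RNA that binds Pumilio proteins, is listed under its older symbol 2900097C17Rik. It had 13505 counts in the shcircSmad5 library and 14608 in the empty vector library, a log2 ratio of -0.14 (-0.18 to -0.11). Kcnq1ot1, an unspliced nuclear RNA of an imprinted domain, had 3921 counts in the shcircSmad5 library and 3484 in the empty vector library, a log2 ratio of 0.14 (0.07 to 0.21). Firre, a nuclear RNA of the X chromosome, had a log2 ratio of 0.42.

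**Figure D3:**
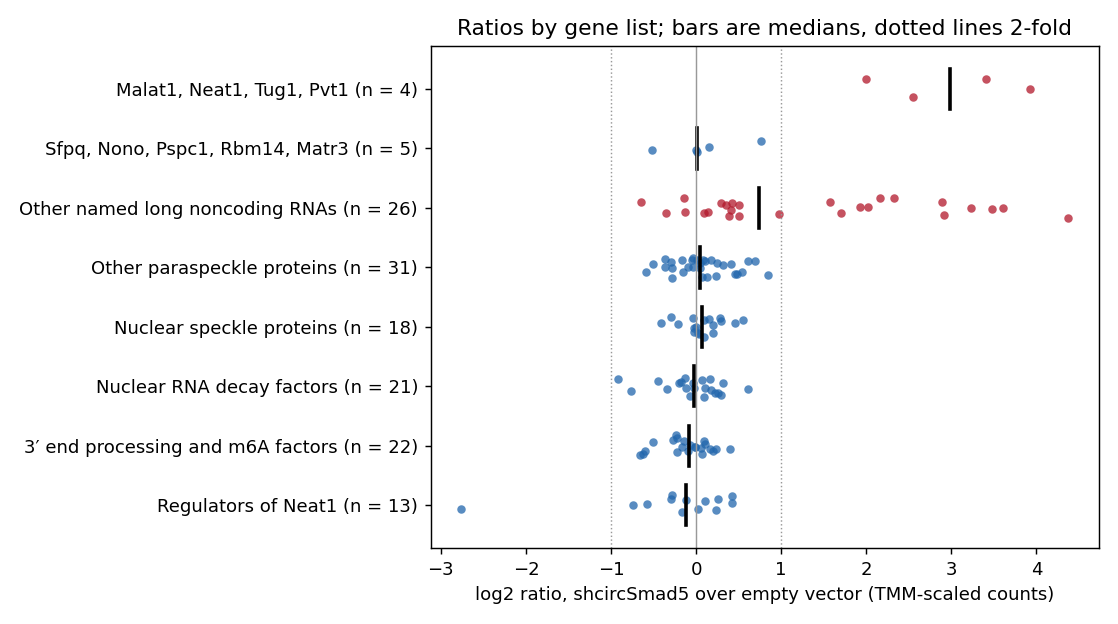
Log2 ratio of shcircSmad5 over empty vector for each gene with at least 20 counts, by list, with black bars at the medians and dotted lines at 2-fold. The noncoding genes at the top have a median of 2.98 and the other named long noncoding RNAs 0.74, and the medians of the protein lists lie between -0.11 and 0.06.

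Genes for the rest of the paraspeckle, and for the bodies and enzymes that handle these RNAs, stayed within 2-fold. Most protein-coding genes were likewise not called, as 11% of 11605 were, and no list was tested against that share. Of 31 other paraspeckle protein genes measured, 0 were called in either direction, with a median log2 ratio of 0.05 and a range of -0.59 to 0.84. The most abundant were Hnrnpk, which favours the long isoform of NEAT1 in human cells (0.12), Hnrnpf (0.01) and Hnrnpa1 (0.41). Of 18 nuclear speckle genes, 0 were called and the median was 0.06. Srrm2 and Son, the scaffolds of the speckles where Malat1 sits, had log2 ratios of -0.21 and 0.09, and Rbm39 of 0.19. Of 21 genes for nuclear RNA decay and cap binding, 0 were called and the median was -0.03. Among them were the nuclear exonuclease gene Xrn2 (-0.35), Srrt (-0.13) and Zc3h18 (-0.04).

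The list of 3′ end processing and m6A genes holds subunits of RNase P, the RNase Z gene Elac2, and writers and readers of the m6A mark, which Malat1 carries. Of 22 measured, 0 were called, beside 11% of all protein-coding genes, with a median log2 ratio of -0.08 and a highest value of 0.40. Mettl16, whose human protein binds the MALAT1 triple helix, had a log2 ratio of 0.07, the m6A reader Ythdc1 0.24 and Hnrnpc -0.01. Of 13 transcription factor genes linked to Neat1, 1 was called, and it was lower. That is 7.69%, beside 6.38% of all protein-coding genes called lower. Epas1, which encodes HIF-2 alpha, an activator of NEAT1 in hypoxic human cells, had 154 counts in the shcircSmad5 library and 1023 in the empty vector library, 6.78-fold lower (95% counting interval on the log2 scale -3.02 to -2.52). Hif1a had a log2 ratio of 0.23, Nfe2l2 of -0.57 and Myc of 0.10.

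Malat1 and Neat1 are neighbours that were both higher. Most protein-coding genes around them were not called, but this held for protein-coding genes at large, of which 11% were called. Frmd8, on the far side of Neat1, had 2639 counts in the shcircSmad5 library and 2945 in the empty vector library, a log2 ratio of -0.19 (-0.26 to -0.11). Within 500 kb of Malat1, 50 protein-coding genes were measured, of which 1 was higher, Znrd2, and 1 lower, Cdc42ep2, with a median log2 ratio of 0.18. Of the other genes in that window besides Neat1, the pseudogene Gm25432 and the antisense gene D330050I16Rik were higher, with log2 ratios of 1.60 and 1.88, and the antisense gene Gm42067 was lower, at -1.49. Chromosome 19 as a whole had a median of 0.14. Morc2a, which shares 483 bases of exon with Tug1 on the opposite strand, had 7649 counts in the shcircSmad5 library and 8013 in the empty vector library, a log2 ratio of -0.10 (-0.14 to -0.05). Of 19 protein-coding genes within 500 kb of Tug1, 0 were called, beside the same 11% overall share. Of all 23 genes measured there, 3 were higher, with log2 ratios of 3.67 for the noncoding gene 8430429K09Rik, 1.84 for Gm11948 and 1.52 for Gm11400. The first is above the 2.55 of Tug1 itself. Myc, 47611 bases from Pvt1, had 8216 counts in the shcircSmad5 library and 7502 in the empty vector library.

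**Figure D4:**
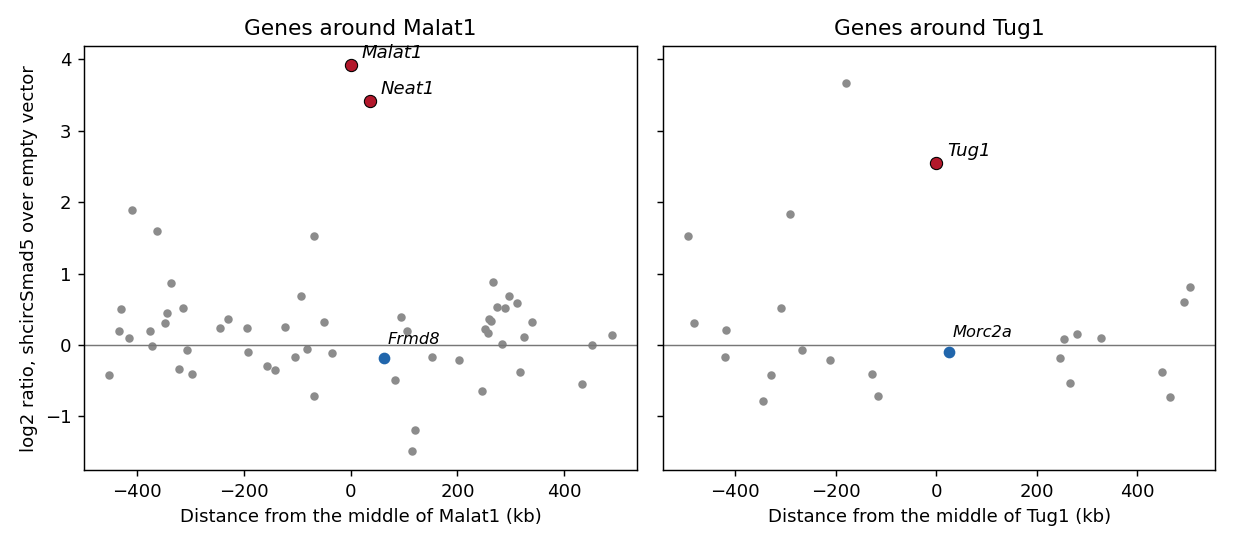
Log2 ratio of shcircSmad5 over empty vector for genes with at least 20 counts around Malat1 and Tug1, against the distance between gene middles in kb. Malat1 (3.92), Neat1 (3.41) and Tug1 (2.55) are in red, and their neighbours Frmd8 and Morc2a in blue lie near 0, while the grey point above Tug1 is 8430429K09Rik (3.67).

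Opposite-strand exons cover 6.49% of the exonic bases of Malat1 and 4.96% of those of Tug1, 1.56% for Pvt1 and 0 for Neat1. The strand setting of the counting is not given, so for these bases the strand of a read is uncertain.

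Some other RNA classes moved with these genes. Of 667 TEC models, transcripts that await experimental testing, 30.1% were higher and 3.60% lower, with a median of 0.64. Of 113 sense intronic genes, 40 were higher and 2 lower, with a median of 0.64. Their part in the result was not tested. Replication-dependent histone genes, whose mRNAs also lack a poly(A) tail, were measured beside them. The bearing of poly(A) tails on these ratios was not tested. Only models annotated as protein-coding were taken, so the histone pseudogene model Hist1h2al, 6.49-fold higher, is outside the set. Of 59 measured, 2 were higher, H2ac19 (2.27-fold) and H3c13 (12.5-fold), and 1 lower, Hist1h2br (2.26-fold), with a median of -0.25. The 12 mitochondrial protein-coding genes had a median of -0.36, with 0 higher and 1 lower, mt-Nd3. The histone and mitochondrial genes named here, and the neighbours other than Frmd8, Morc2a and Myc, are named after their values were seen.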

How the data were processed

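RNA was sequenced in 1 library from each of 2 lines. Per the labels' protocols, 3 µg of total RNA per preparation was depleted of ribosomal RNA and made into strand-specific libraries. Per the submitters' processing notes, the tools were HISAT2 and HTSeq 0.13.5, and 2 builds are named, GRCm38 and GRCh38, with no roles. Which annotation, strand setting and rule for multiply matched reads applied is not given in the sources used here. Per gene, the authors deposited read counts, whole and not normalized, and FPKM, per the file headers. The deposited FPKM implies a gene length equal to the summed exons of GENCODE M21, within 0.01 bases, for 98.1% of genes with counts in the shcircSmad5 library.

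TMM scaling used edgeR 4.0.16 in R 4.3.3. Ratios are shcircSmad5 over empty vector, each with an exact (Clopper-Pearson) 95% interval for how the counts split between libraries. Zero counts took a floor of 3. With 1 library per group, no test was made. The calling rule was tested on simulated data with counting error only. That setting holds no variation between lines, so it cannot show whether a call would recur in other lines. For the lists, 22319 of 22383 gene IDs matched the annotation. The genes and lists were chosen with earlier results of these data known. The rule for naming took the 9 genes, genes of the context lists past the calling rule and up to 3 others with most counts, overlapping genes and nearest protein-coding neighbours. Not every gene under this rule is reported here, and markers were named as a check of the labelled cell type. The histone, TEC and sense intronic groups, and the breakdowns of long noncoding genes, were chosen after values were seen. DESeq2 1.42.0 size factors were an alternative. Sequences came from GENCODE M21 transcripts.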

Additional observations from a re-analysis of the deposited data

How the results depend on the processing

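The 4 noncoding genes were called higher under all 12 alternatives, with log2 ratios of 3.78 to 4.00 for Malat1, 3.27 to 3.49 for Neat1, 2.46 to 2.63 for Tug1 and 1.80 to 2.07 for Pvt1 over the 8 that change the ratio. The noncoding median, 2.98 as reported, was 3.05 with upper quartile scaling, 3.06 with totals that leave out mitochondrial and the top 20 genes, and 2.86 with each chromosome centred. The median of the 5 protein genes, 0.01 as reported, was 0.0730 with total counts, 0.0751 with upper quartile scaling, 0.0594 with TMM on protein-coding genes, 0.0872 without mitochondrial and top genes, 0.0750 with each chromosome centred and 0.0729 with log2(FPKM + 0.1). The difference of the medians was 2.97, and 2.79 with each chromosome centred, where Nono was at -0.09 and Rbm14 turned to -0.14. At a limit of 1.5-fold, 1 of the 5 protein genes was called, Pspc1, beside 3645 of all 13596 genes measured. At the 2-fold limit 1994 of the 13596 were called, 1146 higher and 848 lower, and at 3-fold 1013. With a minimum of 100 counts, 902 of 10872 genes were called, 439 higher and 463 lower. No paired analysis was possible because each group had 1 library. No replicate could be left out. The smallest count among the 9 genes was 272, for Pvt1 in the empty vector library.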
